A study of Homo sapiens with 20 samples.

Results

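The histone genes of the replication clusters were every feature of the deposited count files whose symbol starts with HIST1H, HIST2H, HIST3H or HIST4H. They numbered 73 of 54435 features and comprised 6 genes of the linker histone H1, 18 of H2A, 20 of H2B, 14 of H3 and 15 of H4. RefSeq on GRCh38.p14 places the 56 HIST1 genes on chromosome 6, the HIST2 and HIST3 genes, 16 in all, on chromosome 1, and HIST4H4 on chromosome 12. It lists 3 of the 73 as pseudogenes, HIST1H2APS1, HIST2H2BA and HIST2H2BC.

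The cells were of the H1 line, an established human embryonic stem cell line, not to be confused with the linker histone of the same name. Clones KO1 and KO2, each labelled as a knockout of the long noncoding RNA gene DIGIT, and unedited cells (WT) were each sampled at day 4 in RPMI medium with B27 supplement and 50 ng/ml Activin A, a ligand that directs these cells towards endoderm, and at day 0 in mTeSR1, a medium for undifferentiated cells. These 6 groups had 2 libraries each, made from poly(A) RNA. Each knockout is a single clone, so an effect of the deletion and a peculiarity of the clone cannot be told apart. No feature carried the name of DIGIT, and its level was not analysed here. The labels do not say that the libraries of a group came from separate cultures, so p-values measure only the spread between these libraries, which may be technical.

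Core histones H2A, H2B, H3 and H4 build the protein spool around which DNA is wound, and linker histone H1 binds where the DNA enters and leaves it. Genes of the replication clusters are transcribed mainly in S phase, and most of their mRNAs end in a stem-loop bound by SLBP and carry no poly(A) tail, so a poly(A) library holds only a small part of them. For some of these genes, among them HIST1H2BK and HIST1H1C, transcripts with a poly(A) tail are known as well. The counts below therefore describe histone RNA that was retained by poly(A) selection and not the total histone mRNA of the cells.

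Each library held 9942016 to 21394547 counts, of which 1024 to 3154, or 0.00840% to 0.0210%, fell on histone genes. Values are given as CPM, counts scaled to a library total of 1000000 with TMM factors, and 3 counts equal 0.133 to 0.294 CPM. CPM takes no account of transcript length, so levels are compared between groups and not between genes. Across all genes, the chi-square between the 2 libraries of a group, divided by the number of genes, was 20.1 in KO1 day 0 and 1.89 to 3.83 in the other groups, and over histone genes alone it was 2.92 against 0.949 to 1.83. KO1 day 0 replicate 2 held 80.0 CPM of histone counts in sum, against 106 CPM in replicate 1. Summed definitive endoderm markers lay at 4910 to 4983 CPM in KO1, 835 to 1055 CPM in KO2 and 4486 to 4885 CPM in WT at day 4, and at 8.14 to 16.9 CPM in all day 0 libraries. The sum does not describe every endoderm gene in KO1. CXCR4, GATA4 and SOX17 were lower in KO1 than in WT at day 4. Their log2 fold changes were -1.44, -1.13 and -0.37 (adjusted p from edgeR 2.33e-06, 5.73e-06 and 0.0413). Estimates for FOXA1, FOXA2, GATA6 and HHEX were also below WT, with adjusted p from edgeR of 0.0975 to 0.626. The estimate for CER1 was above WT (log2 0.16, adjusted p from edgeR 0.561). Summed markers of undifferentiated cells were 4191 to 4304 CPM in KO1, 5385 to 5390 CPM in KO2 and 4434 to 4502 CPM in WT at day 4. By these sums the KO2 libraries carried fewer endoderm transcripts and more transcripts of undifferentiated cells than the others at that day. Gene by gene against WT, POU5F1, NANOG, SOX2, DNMT3B, ZFP42 and DPPA4 were higher in KO2, by log2 0.41 to 0.91. TDGF1 was lower in KO2 (log2 -0.35, adjusted p from edgeR 0.0153). The estimate for LIN28A was also below WT (log2 -0.11, adjusted p from edgeR 0.212). In bulk RNA, fewer cells of a type and less RNA per cell cannot be told apart.

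In summed histone CPM, the 2 clones differed from WT in opposite directions at day 4. Gene by gene, as given below, 4 of 44 tested genes fell in KO2 (9.09%), where 14.5% of all tested features fell. All histone genes together amounted to 224 and 217 CPM in KO1, against 88.3 and 87.1 CPM in KO2 and 111 and 120 CPM in WT, so that no 2 of these groups overlapped. KO1 held 1.91 times the WT mean, KO2 0.760 times the WT mean, and KO2 0.398 times the KO1 mean. At day 0 the sums were 106 and 80.0 CPM in KO1, against 100.2 and 100.3 CPM in KO2 and 111 and 106 CPM in WT.

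**Figure D1:**
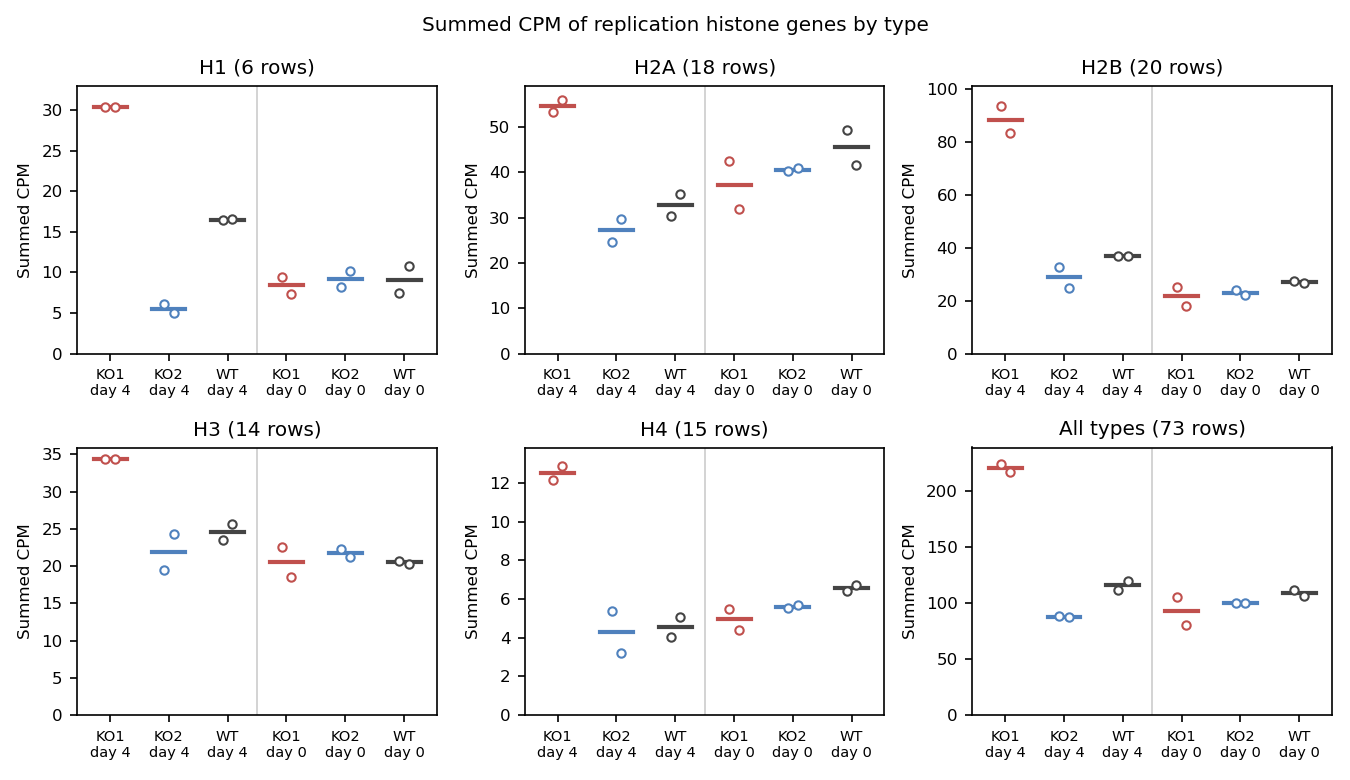
Summed CPM of the histone genes of each type and of all types, on linear axes from 0, in the 2 libraries of each group (circles) with the group mean (bar), for KO1, KO2 and WT at day 4 and then at day 0. At day 4 both KO1 libraries stand above all KO2 and WT libraries for every type, and KO2 stands lowest for H1, at a mean of 5.53 CPM against 16.5 CPM in WT.

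Every histone type was higher in KO1 at day 4, by different amounts. H1 genes summed to 30.5 and 30.4 CPM in KO1, against 6.10 and 4.95 CPM in KO2 and 16.5 and 16.6 CPM in WT. H2A genes summed to 53.3 and 55.9 CPM in KO1, against 24.7 and 29.7 CPM in KO2 and 30.4 and 35.3 CPM in WT. H2B genes summed to 93.7 and 83.4 CPM in KO1, against 32.7 and 25.0 CPM in KO2 and 36.9 and 37.0 CPM in WT. For these 3 types the KO2 libraries lay below the WT libraries with no overlap. H3 genes summed to 34.3 CPM in both KO1 libraries, 19.4 and 24.3 CPM in KO2, and 23.6 and 25.6 CPM in WT, and KO2 and WT overlapped. H4 genes summed to 12.2 and 12.9 CPM in KO1, against 5.38 and 3.21 CPM in KO2 and 4.04 and 5.09 CPM in WT, where KO2 and WT overlapped again. As ratios of group means, KO1 over WT ranged from 1.40 for H3 to 2.74 for H4, and KO2 over WT from 0.334 for H1 to 0.940 for H4.

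Gene by gene, 44 of the 73 rows had enough counts to be tested with edgeR's quasi-likelihood test, with Benjamini-Hochberg adjustment over 16792 features and a threshold of 0.05. In KO1 against WT at day 4, 21 of the 44 rose and none fell, where 10.5% of all tested features rose and 9.42% fell. The median log2 fold change of the 44 was 0.98, against 0.01 over all features, and all 44 estimates were positive. In KO2 against WT at day 4, none rose and 4 fell, where 13.5% of all features rose and 14.5% fell, so the share that fell, 9.09% of the 44, was below that of all features. The median there was -0.27. Both contrasts share the WT libraries. For 7 of the 44 genes, KO1 day 4 was the only group wholly above the minimum of 0.744 CPM. The filter asked for any 2 libraries above this minimum. HIST1H2BF, HIST1H2BG and HIST1H2BM, among the 7, also reached it in single libraries of other groups, enough to be tested without KO1 day 4. HIST1H2AB, HIST1H2BO, HIST1H3B and HIST1H3E reached it in KO1 day 4 only, so they had to be high there. Among the 37 genes outside these 7, 16 rose in KO1 and 4 fell in KO2. Counts depended on single libraries and on the tool. The 21 became 9 in DESeq2's Wald test, 11 or 12 when replicate 1 or 2 of WT day 4 was left out, and 12 when replicate 1 of KO1 day 4 was, all of them higher. The 4 of KO2 became 2 without KO2 day 4 replicate 2, and 8, 7 lower and 1 higher, without either KO1 day 0 library. The KO1 day 0 libraries are in neither group of this contrast, but enter the shared filter, scaling and estimate of spread.

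**Figure D2:**
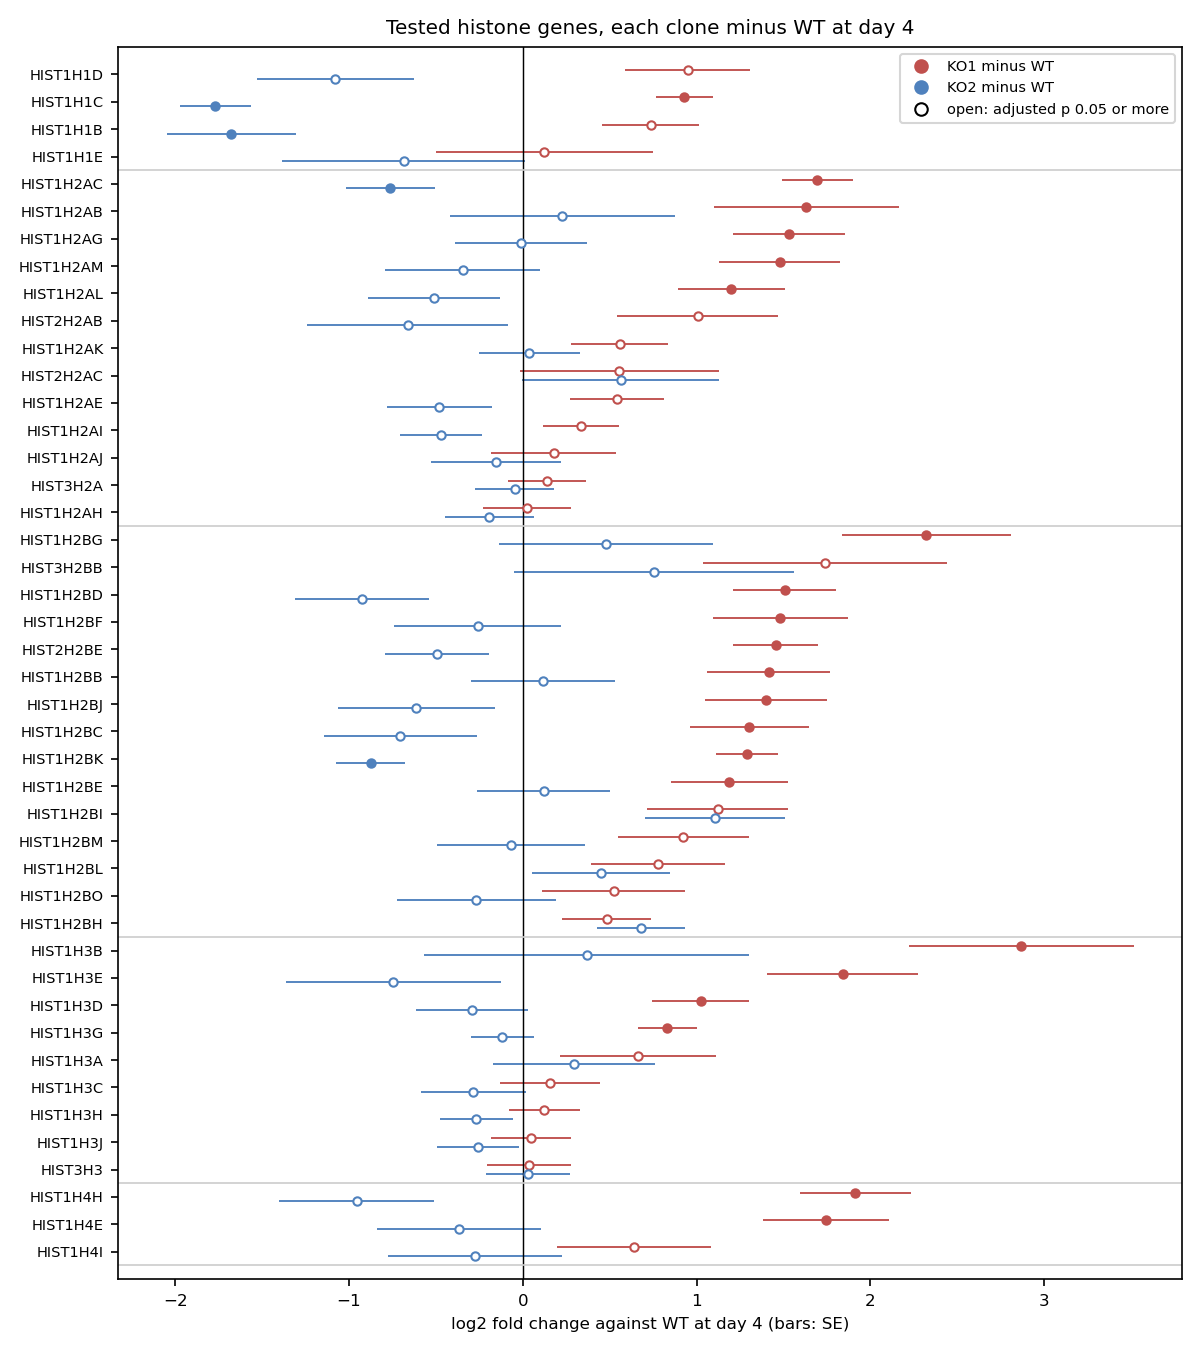
Fitted log2 fold change (horizontal axis) against WT at day 4 for the 44 tested histone genes, grouped by type from H1 at the top to H4 at the bottom, with KO1 in red, KO2 in blue and bars of 1 SE. Filled points pass an adjusted p of 0.05; the KO1 points all lie right of 0, and the 4 filled KO2 points, HIST1H1B, HIST1H1C, HIST1H2AC and HIST1H2BK, lie left of it.

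Linker histone genes gave the clearest fall in KO2. HIST1H1C, a linker histone gene, had 22.5 and 21.2 CPM in KO1, against 3.53 and 3.21 CPM in KO2 and 11.1 and 11.9 CPM in WT at day 4, with no overlap between any of the 3. It rose 1.90-fold in KO1 (log2 0.93, SE 0.16, adjusted p from edgeR 0.0011) and fell to 0.294 times WT in KO2 (log2 -1.77, SE 0.20, adjusted p from edgeR 1.5e-05). HIST1H1B, another linker histone gene, had 3.37 and 4.06 CPM in KO1, against 0.722 and 0.669 CPM in KO2 and 2.29 and 2.19 CPM in WT. Its fall in KO2 passed the test (log2 -1.68, SE 0.37, adjusted p from edgeR 0.00355), while KO1 did not (log2 0.74, SE 0.28, adjusted p from edgeR 0.0782) although its libraries did not overlap with WT. For HIST1H1D the log2 fold changes were 0.95 in KO1 and -1.08 in KO2, and for HIST1H1E 0.12 and -0.69, none past the threshold. HIST1H1C and HIST1H1B stayed past it in KO2 under all 18 alternatives, with adjusted p up to 0.000904 and 0.0448. The KO2 libraries in which both fell were also those with 835 to 1055 CPM of endoderm markers, and the part of this in the result was not tested.

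Among H2A genes, HIST1H2AC changed in both clones. It had 14.0 and 13.6 CPM in KO1, against 2.17 and 2.81 CPM in KO2 and 4.20 and 4.32 CPM in WT at day 4. This amounted to a 3.23-fold rise in KO1 (log2 1.69, SE 0.20, adjusted p from edgeR 4.33e-05) and a 1.69-fold fall in KO2 (log2 -0.76, SE 0.25, adjusted p from edgeR 0.0366), the second of which missed the threshold in 6 of 18 alternatives, with adjusted p up to 0.198. HIST1H2AG, HIST1H2AL, HIST1H2AM and HIST1H2AB also rose in KO1, by 1.20 to 1.63 on the log2 scale. The 8 other H2A genes tested did not pass in KO1, with estimates from 0.02 for HIST1H2AH to 1.01 for HIST2H2AB (SE 0.46) on the log2 scale. HIST3H2A had 5.78 and 6.53 CPM in KO1, against 4.33 and 6.42 CPM in KO2 and 6.18 and 5.09 CPM in WT, and all 3 groups overlapped (log2 0.14, SE 0.22, for KO1 and -0.05, SE 0.23, for KO2). HIST1H2AI had 6.73 and 8.39 CPM in KO1, against 3.37 and 5.22 CPM in KO2 and 5.72 and 6.32 CPM in WT, and neither clone passed the test against WT.

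H2B had the most genes called, 9 of 15 tested in KO1. HIST1H2BK, for which long polyadenylated transcripts are known, had 51.9 and 43.2 CPM in KO1, against 11.96 and 9.30 CPM in KO2 and 19.1 and 19.7 CPM in WT at day 4. It rose 2.44-fold in KO1 (log2 1.29, SE 0.18, adjusted p from edgeR 0.000164) and fell to 0.545 times WT in KO2 (log2 -0.88, SE 0.20, adjusted p from edgeR 0.00422). Without KO2 day 4 replicate 2 the fall had an adjusted p from edgeR of 0.0758. This gene alone took 21.4% of all histone counts in KO1, 11.99% in KO2 and 16.8% in WT at day 4. Without it, the remaining H2B genes summed to 41.9 and 40.2 CPM in KO1, against 20.8 and 15.7 CPM in KO2 and 17.9 and 17.3 CPM in WT, so the excess in KO1 stayed at 2.34 times WT while KO2 and WT overlapped.

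HIST1H2BD had 7.42 and 7.22 CPM in KO1, against 1.20 and 1.47 CPM in KO2 and 1.98 and 3.09 CPM in WT, and rose 2.84-fold in KO1 (log2 1.51, SE 0.30, adjusted p from edgeR 0.0025). HIST2H2BE, an H2B gene of the chromosome 1 cluster, had 6.65 and 6.47 CPM in KO1, against 2.25 and 1.20 CPM in KO2 and 2.75 and 2.06 CPM in WT, and rose 2.74-fold in KO1 (log2 1.45, SE 0.24, adjusted p from edgeR 0.000717). Neither fell past the threshold in KO2. HIST1H2BB, HIST1H2BC, HIST1H2BE, HIST1H2BF, HIST1H2BG and HIST1H2BJ rose in KO1 as well, by 1.19 to 2.32 on the log2 scale, with WT levels of 0.153 to 1.37 CPM. For HIST1H2BH and HIST1H2BI the estimates were above WT in both clones, and none passed the threshold. HIST1H2BH had 5.09 and 4.54 CPM in KO1, against 6.18 and 4.89 CPM in KO2 and 3.74 and 3.16 CPM in WT, with an adjusted p from edgeR of 0.0566 for KO2, and the estimate for HIST1H2BI in KO2 was 1.10 (SE 0.40, adjusted p from edgeR 0.0533).

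Of 9 H3 genes tested, 4 rose in KO1, and the estimates of the other 5 lay between 0.04 for HIST3H3 and 0.66 for HIST1H3A (SE 0.45) on the log2 scale. HIST1H3G had 7.77 CPM in both KO1 libraries, 4.25 and 3.81 CPM in KO2, and 4.27 and 4.45 CPM in WT, a 1.78-fold rise in KO1 (log2 0.83, SE 0.17, adjusted p from edgeR 0.00293). HIST1H3D, HIST1H3E and HIST1H3B rose in KO1 too, by 1.02, 1.84 and 2.87 on the log2 scale, and the last of these rested on 28 counts in KO1 and 4 in WT. HIST1H3H had 5.87 and 5.71 CPM in KO1, against 4.17 and 4.62 CPM in KO2 and 5.19 and 5.41 CPM in WT, and did not pass the test (log2 0.12, SE 0.20, in KO1). HIST3H3, a gene known from testis, had 4.92 and 5.23 CPM in KO1, against 3.85 and 6.16 CPM in KO2 and 4.81 and 5.09 CPM in WT, and the groups overlapped. No H3 gene passed the test in KO2 against WT.

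Only 3 of 15 H4 genes could be tested. HIST1H4H had 5.09 and 5.71 CPM in KO1, against 1.04 and 0.468 CPM in KO2 and 1.37 and 1.48 CPM in WT at day 4. It rose 3.77-fold in KO1 (log2 1.91, SE 0.32, adjusted p from edgeR 0.000713), and its estimate in KO2 was -0.96 (SE 0.44, adjusted p from edgeR 0.125). HIST1H4E had 2.76 and 2.68 CPM in KO1, against 0.802 and 0.468 CPM in KO2 and 0.915 and 0.709 CPM in WT, and rose 3.35-fold in KO1 (log2 1.75, SE 0.36, adjusted p from edgeR 0.00351). HIST1H4I, with 0.863 and 0.688 CPM in KO1, against 0.481 and 0.335 CPM in KO2 and 0.458 and 0.516 CPM in WT, passed no test between clones and WT.

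**Figure D3:**
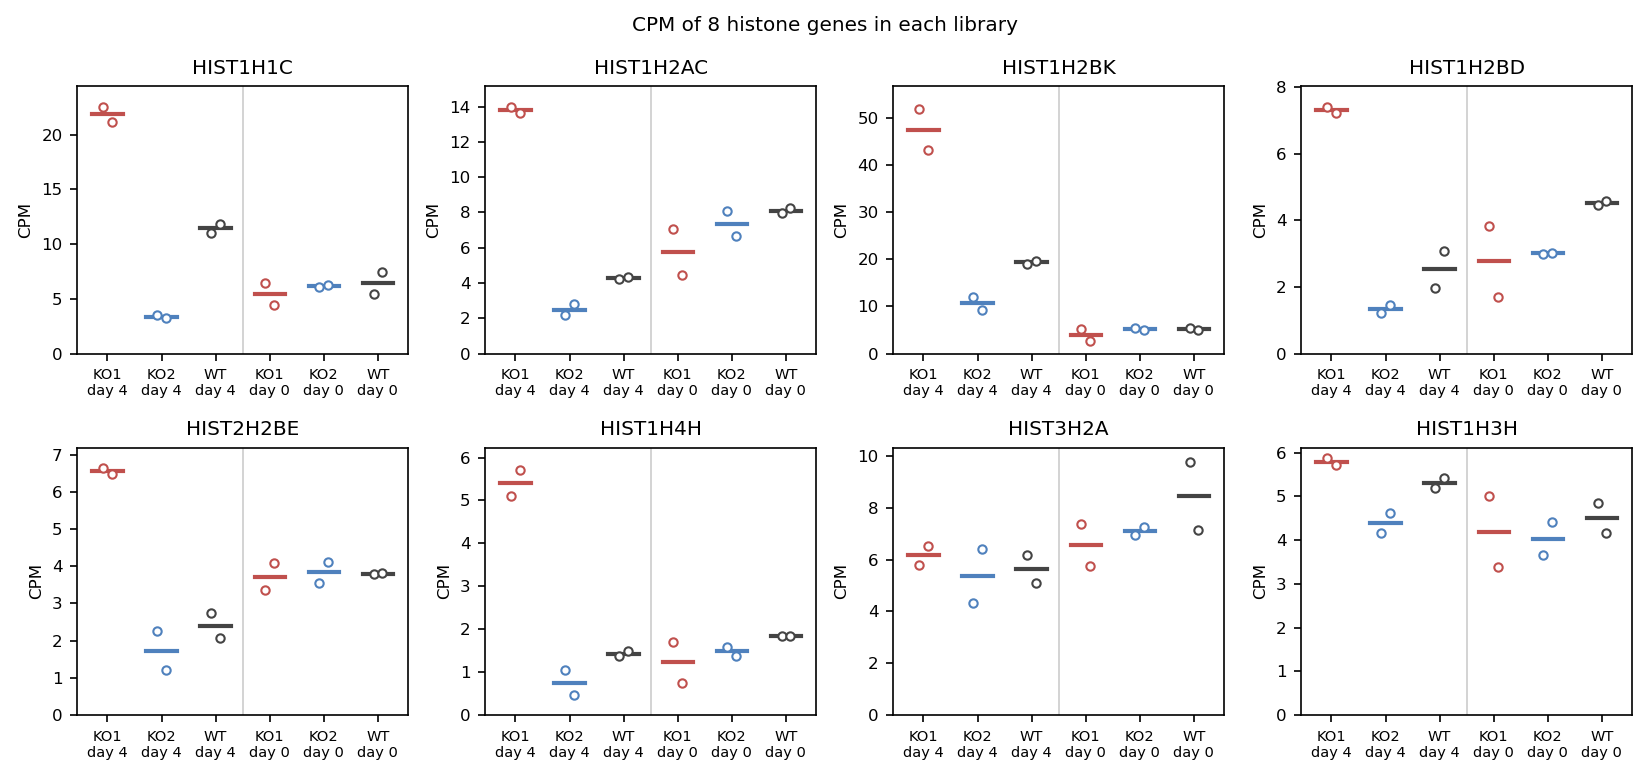
CPM of 8 histone genes in the 2 libraries of each group (circles) with the group mean (bar), each panel on its own linear axis from 0, for KO1, KO2 and WT at day 4 and then at day 0. HIST1H1C, HIST1H2AC, HIST1H2BK, HIST1H2BD, HIST2H2BE and HIST1H4H stand apart in KO1 day 4, whereas HIST3H2A and HIST1H3H, at log2 0.14 and 0.12 against WT, do not.

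The remaining 29 rows had 0 to 82 counts over all 12 libraries and were not tested. Of these, HIST2H2AA3, HIST2H2AA4, HIST2H3A, HIST2H3C, HIST2H4A and HIST2H4B were listed at 0 in every library. Each of these has a near-identical copy in the chromosome 1 cluster, and 19.3% to 22.2% of reads per library were set aside for low mapping quality, so a level of 0 says nothing of their expression. HIST1H4J, with 82 counts, and HIST2H2BC, with 79, were the largest of the rows left out. HIST1H1T, HIST1H2AA and HIST1H2BA, known from testis, had 1, 50 and 7 counts. By the same token, genes of 1 type are close in sequence, and how reads shared between copies were assigned limits the value of any single row.

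Genes for which polyadenylated transcripts are known carried much of the difference. The 6 such genes, HIST1H1C, HIST1H2AC, HIST1H2BD, HIST1H2BJ, HIST1H2BK and HIST2H2BE, summed to 105 and 94.9 CPM in KO1, against 21.9 and 18.7 CPM in KO2 and 40.4 and 42.0 CPM in WT at day 4. The other 67 rows summed to 119 and 122 CPM in KO1, against 66.4 and 68.5 CPM in KO2 and 70.9 and 77.7 CPM in WT. Neither sum overlapped between groups, and the ratio of KO1 to WT was 2.43 for the 6 genes and 1.62 for the others, that of KO2 to WT 0.493 and 0.908. All 6 rose in KO1 against WT, with a median log2 fold change of 1.43, where 10.5% of all features rose. Of the 38 other tested genes 15 rose, with a median of 0.88. These 38 include all 7 genes for which KO1 day 4 was the only group wholly above the filter minimum. In KO2 against WT, 3 of the 6 fell, HIST1H1C, HIST1H2AC and HIST1H2BK, with a median over the 6 of -0.82, where 14.5% of all features fell. Of the 38 others 1 fell, HIST1H1B, with a median of -0.23. RNAs without a poly(A) tail, such as RMRP and RN7SK, were also listed, 35 in all, and 1 had enough counts to be tested. Their sum lay between 2.06 and 4.32 CPM in all 12 libraries. It was 2.82 and 4.32 CPM in KO1, against 3.08 and 3.45 CPM in KO2 and 2.06 and 2.82 CPM in WT at day 4. So few counts cannot measure how much unselected RNA a library holds.

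**Figure D4:**
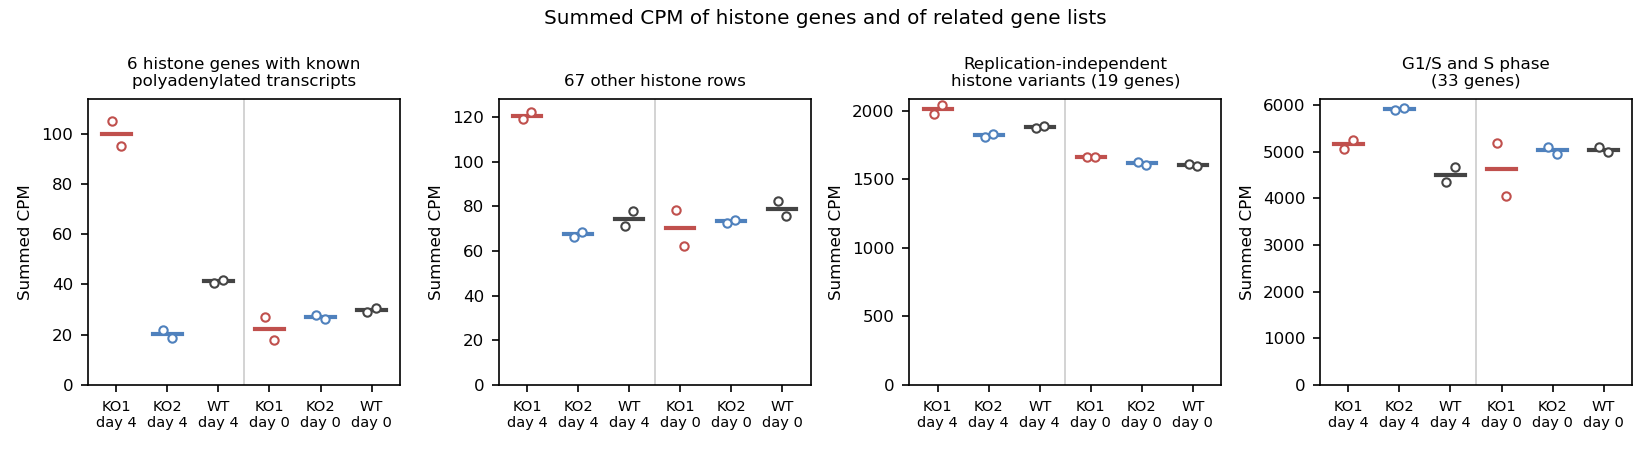
Summed CPM, on linear axes from 0, of the 6 histone genes with known polyadenylated transcripts, the other 67 histone rows, 19 replication-independent histone variants and 33 genes of G1/S and S phase, per library (circles) with group means (bars), for KO1, KO2 and WT at day 4 and then at day 0. KO1 is highest at day 4 in both histone panels, while KO2, at 5891 and 5945 CPM, is highest for the S phase genes.

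The clones also differed from each other. In KO2 against KO1 at day 4, 25 of the 44 tested genes fell and none rose, where 14.3% of all features fell and 10.8% rose, and the median log2 fold change was -1.18. By type, 3 of 4 H1 genes, 7 of 13 H2A genes, 9 of 15 H2B genes, 4 of 9 H3 genes and 2 of 3 H4 genes fell. HIST1H1C was 6.48-fold lower in KO2 (log2 -2.70, SE 0.19, adjusted p from edgeR 1.09e-07), HIST1H4H 7.31-fold lower (log2 -2.87, SE 0.36, adjusted p from edgeR 3.75e-05) and HIST1H2AC 5.48-fold lower (log2 -2.45, SE 0.22, adjusted p from edgeR 1.47e-06). HIST1H1D, HIST1H2AE, HIST1H2AI and HIST2H2AB, which passed in neither clone against WT, fell here by 2.03, 1.02, 0.81 and 1.67 on the log2 scale. Of the 25, 16 stayed past the threshold under all 18 alternatives. Leaving out the 7 genes for which KO1 day 4 was the only group wholly above the minimum, 21 of 37 fell.

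At day 0 no histone gene passed the test in any comparison of the lines. KO1 against WT had 0 calls from edgeR among the 44, where 0.238% of all features were called, and 4 genes, HIST1H2AC, HIST1H2BB, HIST1H2BD and HIST1H2BJ, had an unadjusted p under 0.05. KO2 against WT had 0 calls where 0.143% of all features were called, and KO2 against KO1 had 0 where 0.0119% were called, and in neither did a gene reach an unadjusted p under 0.05. DESeq2 gave 0 calls in each of the 3. The median log2 fold changes were -0.15 for KO1 against WT, -0.14 for KO2 against WT and 0.15 for KO2 against KO1. KO1 day 0 rested on 2 libraries that stood apart from each other: without replicate 1, 7 genes were lower in KO1 than in WT and 2 higher in KO2 than in KO1, and without replicate 2 none was called in either.

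Between day 4 and day 0 the 3 lines differed in which histone genes changed. In WT, 3 genes rose and 7 fell between day 4 and day 0, where 24.3% of all features rose and 25.4% fell, with a median of -0.09. HIST1H2BK rose 3.70-fold in WT, with 19.1 and 19.7 CPM at day 4 against 5.42 and 5.09 CPM at day 0 (log2 1.89, SE 0.22, adjusted p from edgeR 5.22e-06), and HIST1H1C and HIST1H1B rose by 0.82 and 1.13 on the log2 scale. HIST1H2AC fell in WT, with 4.20 and 4.32 CPM at day 4 against 7.94 and 8.26 CPM at day 0 (log2 -0.93, SE 0.22, adjusted p from edgeR 0.00226), and HIST3H2A, HIST2H2BE, HIST1H2BD, HIST1H2AL, HIST2H2AB and HIST1H2AM fell by 0.57 to 1.17. The 10 calls of WT became 3 in DESeq2, 4 when replicate 1 of WT was left out at either day, and 6 when replicate 2 of WT or either KO1 day 4 library was. HIST1H2BK, HIST1H1C and HIST1H2AC were among those called each time.

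In KO1, 24 of the 44 rose between day 4 and day 0 and none fell, where 29.1% of all features rose and 29.3% fell, with a median of 0.89. Without the 7 genes for which KO1 day 4 was the only group wholly above the filter minimum, 19 of 37 rose, with a median of 0.81. HIST1H2BK was 12.4-fold higher in KO1, with 51.9 and 43.2 CPM at day 4 against 5.16 and 2.62 CPM at day 0. HIST1H1C rose 4.07-fold and HIST1H2AC, which fell in WT, rose 2.43-fold (log2 1.28, SE 0.19, adjusted p from edgeR 3.29e-05). In KO2, 3 rose and 9 fell, where 25.0% of all features rose and 25.7% fell, with a median of -0.25. The 3 were HIST1H2BK at 1.02, HIST1H2BH at 0.99 and HIST1H2BI at 1.85 on the log2 scale, and HIST1H1C, which rose in WT, fell in KO2, with 3.53 and 3.21 CPM at day 4 against 6.09 and 6.27 CPM at day 0 (log2 -0.88, SE 0.23, adjusted p from edgeR 0.00507). The 12 calls of KO2 became 7 when its replicate 2 was left out at either day.

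Tested directly, the change over 4 days was larger in KO1 than in WT for 16 genes and smaller for none, where 4.99% of all features had a larger and 4.81% a smaller change, and the median difference over the 44 was 1.14. Without the 7 genes for which KO1 day 4 was the only group wholly above the filter minimum, it was larger for 13 of 37, with a median of 0.88. For KO2 against WT it was smaller for 1 gene, HIST1H1C, and larger for none, where 7.50% and 6.37% of all features were, with a median difference of -0.21. The 16 became 6 in DESeq2. Leaving out replicate 1 or 2 of WT left 6 or 8 at day 0 and 8 or 9 at day 4, and leaving out replicate 1 or 2 of KO1 at day 4 left 7 or 8. The 1 of KO2 became 3 or 4 when replicate 1 or 2 of KO1 day 0 was left out.

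Promoter sequences are shown for 5 genes. HIST1H1C, HIST1H2AC, HIST1H2BK and HIST1H4H are among the 7 genes that rose in KO1 against WT at day 4 under all 18 alternatives. The others of the 7, HIST1H2BD, HIST1H3G and HIST2H2BE, are not shown. HIST3H2A is shown because it had the highest mean CPM among the genes that did not pass the test in KO2 against KO1 at day 4. Its estimates against WT were also close to 0. Each runs from 250 bases before the RefSeq start to 50 after it on GRCh38.p14, the build of the promoter table and not of the counts. Capitals mark, on either strand, the TATA box as TATAAA, the CCAAT box as CCAAT and the octamer element bound by POU2F1 as ATTTGCAT.
HIST1H1C, chr6:26056421-26056720, minus strand: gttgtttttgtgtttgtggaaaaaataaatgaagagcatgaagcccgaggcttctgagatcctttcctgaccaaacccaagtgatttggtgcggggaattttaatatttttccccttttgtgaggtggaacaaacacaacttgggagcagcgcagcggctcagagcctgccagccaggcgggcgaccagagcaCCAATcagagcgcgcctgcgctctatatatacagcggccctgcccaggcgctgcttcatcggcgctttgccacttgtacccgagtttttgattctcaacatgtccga
HIST1H2AC, chr6:26123922-26124221, plus strand: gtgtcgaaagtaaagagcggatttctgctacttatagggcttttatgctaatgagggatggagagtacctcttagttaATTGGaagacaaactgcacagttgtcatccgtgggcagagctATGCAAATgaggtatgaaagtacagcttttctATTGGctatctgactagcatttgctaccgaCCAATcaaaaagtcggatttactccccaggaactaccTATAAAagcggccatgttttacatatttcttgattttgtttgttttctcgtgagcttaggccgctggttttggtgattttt
HIST1H2BK, chr6:27146809-27147108, minus strand: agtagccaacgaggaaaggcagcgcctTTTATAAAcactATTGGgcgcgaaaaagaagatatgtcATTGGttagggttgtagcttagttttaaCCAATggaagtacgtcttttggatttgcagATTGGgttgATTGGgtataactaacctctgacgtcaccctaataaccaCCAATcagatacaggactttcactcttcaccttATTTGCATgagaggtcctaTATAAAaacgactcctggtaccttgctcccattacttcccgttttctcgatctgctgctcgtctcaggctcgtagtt
HIST1H4H, chr6:26285485-26285784, minus strand: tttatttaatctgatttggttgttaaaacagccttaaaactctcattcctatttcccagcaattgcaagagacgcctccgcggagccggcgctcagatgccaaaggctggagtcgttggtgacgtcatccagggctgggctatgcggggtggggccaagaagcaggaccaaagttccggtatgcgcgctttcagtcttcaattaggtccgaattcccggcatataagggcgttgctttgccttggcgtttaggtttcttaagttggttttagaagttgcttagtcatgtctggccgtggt
HIST3H2A, chr1:228457824-228458123, minus strand: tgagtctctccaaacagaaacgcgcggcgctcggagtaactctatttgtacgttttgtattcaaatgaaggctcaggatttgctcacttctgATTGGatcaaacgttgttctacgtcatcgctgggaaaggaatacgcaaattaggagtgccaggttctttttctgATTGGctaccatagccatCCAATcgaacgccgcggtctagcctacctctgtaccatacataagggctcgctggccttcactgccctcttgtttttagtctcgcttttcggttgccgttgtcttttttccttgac

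In the promoter of HIST1H2BK, TATAAA occurs 3 times, with the first 2 matches overlapping on opposite strands, CCAAT 6 times and ATTTGCAT once. HIST1H4H holds none of the 3 motifs in these letters. The promoter table held 65 of the 73 genes. TATAAA was found in 66.2% of these 65 promoters against 11.5% of all 35116 promoters, CCAAT in 84.6% against 34.6%, and ATTTGCAT in 40.0% against 1.77%. The types differed: CCAAT was in every H1, H2A, H2B and H3 promoter listed but in 3 of 13 H4 promoters, and ATTTGCAT was in 11 of 16 H2A and 14 of 18 H2B promoters, in 1 of 12 H3 promoters and in none of H1 or H4. Of the genes that rose in KO1 against WT at day 4, ATTTGCAT was in the promoter of 14 of 21, and of the genes tested that did not, in 8 of 21, shares that also carry the unequal makeup by type. CCAAT was in 19 of 21 and 21 of 21, and TATAAA in 14 and 13.

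H2A and H2B genes often lie head to head. RefSeq held 11 such pairs with starts 194 to 248 bases apart, and in 8 both genes were tested. In KO2 against KO1 at day 4, both genes fell in 3 pairs, HIST1H2AC with HIST1H2BC, HIST1H2AE with HIST1H2BG and HIST1H2AG with HIST1H2BJ, 1 gene fell in 3 pairs, and none in 2. Of these, HIST1H2BG was wholly above the filter minimum in KO1 day 4 only. In the pair of HIST2H2AC and HIST2H2BE the log2 fold changes were 0.01 and -1.95. The estimate for HIST2H2AC rests on 5 and 14 counts in KO1 and 6 and 14 in KO2 at day 4. Whether the 2 genes of a pair differed was not tested. Overlap also bears on single rows: 12 histone genes share bases with another feature of the files, among them HIST1H4I, which lies within the span of HIST1H2BK, and HIST1H2AD, within that of HIST1H3D. The strand setting of the counting is unknown here, so reads of such genes cannot be told apart.

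Of 22 genes of histone pre-mRNA processing and transcription, 2 rose in KO1 and 10 in KO2 against WT at day 4. SLBP, which binds the stem-loop, had 66.4 and 73.2 CPM in KO1, against 69.8 and 65.1 CPM in KO2 and 57.7 and 60.6 CPM in WT at day 4, and passed the test in neither clone (log2 0.24, SE 0.09, adjusted p from edgeR 0.0751 in KO1 and log2 0.19, SE 0.09, adjusted p from edgeR 0.136 in KO2). The 2 that rose in KO1 against WT were ERI1, an exonuclease that trims histone mRNA ends, by 0.54, and YY1, a transcription factor, by 0.23 on the log2 scale, and none fell, where 10.5% of all features rose. In KO2 the 10 that rose, where 13.5% of all features did, included NPAT, the activator of histone gene transcription at the clusters, by 0.31, POU2F1 by 0.36 and NCBP2, of the cap-binding complex, by 0.48, and none fell. The median log2 fold changes of the list were 0.03 in KO1 and 0.22 in KO2.

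Genes of G1/S and S phase were higher in both clones than in WT, whereas histone sums were higher in KO1 and lower in KO2. The sum over 33 genes was 5062 and 5263 CPM in KO1, against 5891 and 5945 CPM in KO2 and 4347 and 4669 CPM in WT at day 4, so KO2, which had the lowest histone sums, had the highest sum here. In KO1 against WT 8 of the 33 rose and none fell, where 10.5% of all features rose, with a median of 0.16. In KO2 21 rose and none fell, where 13.5% of all features rose, with a median of 0.40. CCNE1, a cyclin of the entry into S phase, rose in KO2 by 0.57 (SE 0.11, adjusted p from edgeR 0.00132), while its estimate in KO1 was 0.12 (SE 0.11, adjusted p from edgeR 0.489). E2F8, a transcription factor of the cell cycle, rose in both, by 0.77 in KO1 and 0.75 in KO2.

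Histone variants that are made also outside S phase, mostly from mRNAs with a poly(A) tail, differed less from WT in their sum, though not in every gene. The 19 listed summed to 1975 and 2041 CPM in KO1, against 1805 and 1831 CPM in KO2 and 1875 and 1887 CPM in WT at day 4, the same order as the replication histones but a narrower range. Of 11 tested, H2AFZ rose in both clones, by 0.31 in KO1 and 0.40 in KO2 on the log2 scale, and no other variant rose, where 10.5% and 13.5% of all features did. In KO2, H2AFY2 fell by 1.41, H1FX, a linker histone variant, by 0.69 and H2AFY by 0.27, 3 of 11 where 14.5% of all features fell, and none of the 11 fell in KO1. H1FX had 85.4 and 84.8 CPM in KO1, against 56.5 and 56.1 CPM in KO2 and 93.4 and 88.0 CPM in WT. H3F3A was listed at 0 in every library. With 19.3% to 22.2% of reads per library set aside for low mapping quality, that level cannot be read as a lack of expression.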

How the data were processed

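The authors deposited whole-number counts of reads on each feature in 12 RNA-seq libraries, aligned and counted, per the submitters' processing notes, with Bowtie2 2.1.0 and HTSeq 0.6.1 on hg19. Libraries came from a stranded poly(A) kit, per the labels' protocols. The annotation, strand setting and mapping quality limit of the counting were not given in the sources used here. The 8 ChIP-seq samples were not analysed here.

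Counts were scaled with TMM factors of 0.937 to 1.05 and fitted with edgeR 4.0.16 (R 4.3.3) on all 12 libraries as 6 groups, which leaves 6 residual degrees of freedom, after edgeR's filter on low counts left 16792 features. Adjusted p-values are Benjamini-Hochberg values of the quasi-likelihood test over these features. SE is the size of the log2 fold change over the square root of F. The fit was tested on simulated counts. Sums over genes are described without a test. Genes are named by a rule: the 3 of each histone type with the most counts, and any gene past the threshold in a comparison of lines or of day effects. Genes outside it are given where a count of 5 or fewer is described, or were chosen after their values were seen. The histone genes and gene lists were chosen with earlier results of these data known. Alternatives were other scaling factors, no filter, DESeq2 1.42.0, a replicate block, each library left out and, chosen after seeing the data, fits to the libraries of 1 day. Replicate differences correlated between groups at -0.0589 to 0.200, and among the day 0 groups at 0.0957 to 0.200. The labels name no culture or day shared by same-numbered libraries, so the main values carry no block. All 73 genes matched RefSeq by symbol or synonym; its positions belong to GRCh38.p14 and were used for names, neighbours and promoters. Figures were drawn with matplotlib 3.10.9.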

Additional observations from a re-analysis of the deposited data

Results flagged for a closer look

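For 16 histone genes the change between day 4 and day 0 differed between KO1 and WT in edgeR's test of the difference itself (adjusted p under 0.05 over all features), each with a larger change in KO1. For HIST1H2BF, HIST1H2BG and HIST1H3B among these, KO1 day 4 was the only group wholly above the filter minimum. The difference of the log2 changes, KO1 minus WT, was 1.21 for HIST1H1C among the linker genes. Among H2A genes it was 2.21 for HIST1H2AC, 1.74 for HIST1H2AG, 1.44 for HIST1H2AL and 1.84 for HIST1H2AM. Among H2B genes it was 2.52 for HIST1H2BB, 2.25 for HIST1H2BD, 1.97 for HIST1H2BF, 2.80 for HIST1H2BG, 2.35 for HIST1H2BJ, 1.75 for HIST1H2BK and 1.48 for HIST2H2BE. It was 3.59 for HIST1H3B, which had 4 counts in WT day 4, 0.88 for HIST1H3G, 2.06 for HIST1H4E and 2.53 for HIST1H4H. HIST1H2AC, HIST1H2BD, HIST1H2BK and HIST1H4H passed the threshold under all 17 alternatives. For KO2 minus WT the difference passed for HIST1H1C, at -1.69, which rose over time in WT and fell in KO2, also under all 17 alternatives. Each of these contrasts uses the same WT libraries.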

How the results depend on the processing

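DESeq2 moved the number of histone genes called from 21 to 9 for KO1 minus WT at day 4, from 10 to 3 for WT day 4 minus day 0 and from 16 to 6 for the day effect of KO1 minus that of WT. Without the filter on low counts, KO2 minus WT at day 4 had 7 calls, 6 lower and 1 higher, in place of 4 lower. The day effect of KO2 minus that of WT had 3 in place of 1, all lower. In the libraries of day 4 alone KO2 minus WT had 8, 6 lower and 2 higher. With 1 library left out, the calls ranged from 4 to 12 for WT day 4 minus day 0, 21 to 29 for KO1, 7 to 13 for KO2, 0 to 7 for KO1 minus WT at day 0, 0 to 2 for KO2 minus KO1 at day 0, 11 to 23 for KO1 minus WT at day 4, 2 to 8 for KO2 minus WT at day 4, 19 to 29 for KO2 minus KO1 at day 4, 6 to 22 for the day effect of KO1 and 1 to 4 for that of KO2, while KO2 minus WT at day 0 stayed at 0. The cause was not tested. Of 1444 values for named genes under an alternative, 181 lost a call and 13 changed sign, all of WT day 4 minus day 0 and none called: HIST1H2AI (-0.342 to 0.0221 with 1 library left out), HIST1H2BH (-0.0813 to 0.261) and HIST1H3G (-0.0169 to 0.0407, and 0.00446, 0.00200 and 0.00346 with DESeq2's size factors, without the filter and in DESeq2). Upper-quartile factors shifted the median of all features by up to 0.0828 on the log2 scale. Counts of a few reads per library limit most H4 and many H3 genes.

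The labels do not say whether libraries with the same replicate number share a culture or a day. A fit with a replicate block gave 21 calls for KO1 minus WT, 5 for KO2 minus WT and 25 for KO2 minus KO1 at day 4. The 5 were 4 lower and 1 higher. The block fit also gave 15 and 1 for the day effects of KO1 and KO2. It gave 9, 26 and 12 for the changes over time in WT, KO1 and KO2, and 0 in all day 0 comparisons. Each was within 1.5 times the count without it.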

Other observations

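Of 19 histone chaperones, the proteins that carry histones to DNA, 1 rose and 1 fell in KO1 against WT at day 4, NAP1L1 by 0.30 and RBBP7 by 0.37 on the log2 scale, where 10.5% of all features rose and 9.42% fell. In KO2 7 rose and 2 fell, where 13.5% rose and 14.5% fell, with CHAF1A, of the chromatin assembly factor, rising by 0.44 and CABIN1 falling by 0.30. Of 20 genes of G2/M, 3 rose in KO1 against WT, AURKA, CENPE and BIRC5, by 0.29 to 0.40, and in KO2 against KO1 1 rose and 6 fell, where 10.8% of all features rose and 14.3% fell, among them MKI67 by 0.51.

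Grouping by the length of the RefSeq gene was chosen after the values were seen. The 6 tested histone genes that span over 1000 bases, HIST1H2BC, HIST1H2BD, HIST1H2BK, HIST1H3D, HIST1H3E and HIST2H2BE, all rose in KO1 against WT at day 4 (median log2 1.38) and all fell in KO2 against KO1 (median -2.09). Of the 38 shorter ones, 15 rose and 19 fell in the same comparisons, with medians of 0.88 and -0.99. Over all features, 10.5% rose in KO1 against WT and 14.3% fell in KO2 against KO1. HIST1H3E was wholly above the filter minimum in KO1 day 4 only. No library of another group reached it, so this gene had to be high there. The rest of the 7 genes for which KO1 day 4 was the only group wholly above the minimum are among the shorter ones.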
